A study of Mus musculus with 44 samples.

Results

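The livers of Ripk3KO mice (genotype Ripk3-/-) fed CD-HFD, which is high in fat and deficient in choline (4 libraries), were compared with those of Ripk3KO mice fed CD-LFD, which is low in fat and also deficient in choline (3 libraries). The 7 libraries were taken by their labels out of 44 in the study, and are the CD-LFD replicates 1, 2 and 3 and the CD-HFD replicates 1, 2, 3 and 5. Per the labels, all mice were 2 months old when the diets began and stayed on them for 6 months. Every mouse in the comparison lacked Ripk3 and every one received a diet without choline. The comparison is thus one between choline-deficient diets labelled high and low in fat, in mice that carry the deletion. The other contents of the diets are not given here, so fat cannot be told apart from any other content that differed. The labels give no strain, sex, litter or batch and do not say how the allele was made. The study as a whole measured liver RNA in wild-type (WT), Ripk3KO and MlklKO mice on normal chow, CD-LFD or CD-HFD, to ask how blocking necroptosis bears on gene expression in diet-induced liver disease. Total RNA from about 25 mg of liver was made into strand-marked libraries, and reads were counted per gene.

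Ripk3 is a kinase that passes a death signal from receptors such as the TNF receptor to Mlkl, which then breaks the plasma membrane. This form of cell death is called necroptosis, and without Ripk3 the usual route to Mlkl is cut. Choline is needed to make phosphatidylcholine, which coats the lipoproteins that carry fat out of hepatocytes, and diets that lack it lead to fatty liver, inflammation and fibrosis. In such livers, macrophages recruited from blood monocytes take up lipid and express Trem2, Gpnmb and Spp1, stellate cells lay down collagen, and hepatocytes alter the genes of fat synthesis.

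The deleted gene was checked first. Ripk3 had 0, 0 and 1 counts in the CD-LFD libraries and 1, 0, 0 and 1 counts in the CD-HFD libraries, so it lay under a floor of 3 counts in all 7 and no fold is given. Mlkl, the membrane-breaking protein downstream of Ripk3, is intact in these mice. It stood at 15.2, 9.49 and 12.5 CPM on CD-LFD and 14, 13.9, 20.5 and 14.5 CPM on CD-HFD. The groups overlapped and the difference was not called (log2 fold change 0.34, SE 0.29, adjusted p = 0.529). Chow levels cited below come from 6 Ripk3KO libraries, of which 5 had 0 to 2 counts of Ripk3. The library labelled Ripk3KO control replicate 5 had 9 counts of it (1.26 CPM), within the 0.511 to 4.89 CPM of WT mice on chow. Without that library the mean chow level was 0.216 CPM for Mmp12, 0.193 for Gpnmb, 0.781 for Trem2, 6.29 for Timp3, 0.856 for Gpx6 and 172 for Hsd3b5.

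Library totals ran from 4676294 to 12266692 counts on CD-LFD and from 4854689 to 9915047 on CD-HFD, with 18337 to 21847 genes detected. Each value below is in CPM, a library's counts scaled by its total and by the trimmed mean of M-values (TMM), listed in the order CD-LFD 1, 2, 3 and CD-HFD 1, 2, 3, 5 unless stated. The labelled tissue was checked by hepatocyte genes, whose summed level was 65411 to 121164 CPM on CD-LFD and 53458 to 80572 CPM on CD-HFD. The log2 ratio of the clock genes Arntl and Dbp was -7.33 to -6.10 on CD-LFD and -6.27 to -5.57 on CD-HFD, so the groups were close in clock phase by this measure. One library stood apart. CD-LFD replicate 3 lay between the diets on the first principal component, at -14.9 against -49.5 and -76.3 for the other CD-LFD libraries and 25.6 to 43.6 for CD-HFD. It had the highest levels of matrix, duct and antibody genes among the CD-LFD libraries. It also had 144 counts of the female-specific Xist together with the Y-linked Ddx3y at 46.4 CPM, while Xist did not pass 2.10 CPM in any other library of the study. What this library holds beyond its label was not tested, and a number of values below are given with and without it.

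A total of 14862 genes were tested with edgeR's quasi-likelihood test, fitted over all 44 libraries, with p-values adjusted by Benjamini-Hochberg and a threshold of 0.05. Genes under the threshold are called higher or lower below. On CD-HFD 1312 genes were called, which is 8.83% of those tested. Of these, 854 were higher on CD-HFD (5.75% of genes tested) and 458 were lower (3.08%). Among changes of at least 2-fold, 726 were higher and 178 lower. The libraries of the 2 diets did not overlap in 31.2% of the tested genes, called or not. The median difference over all tested genes was 0.02 on the log2 scale. With libraries scaled by their totals alone the median moved to 0.24, and the calls were 1360 higher and 171 lower, so the share of calls that were higher moved from 65.1% to 88.8%. Dropping 1 library moved the total as well. It was 500 without CD-LFD replicate 2, 670 without CD-LFD replicate 1 and 774 without CD-HFD replicate 5, and it was 1321 without CD-LFD replicate 3, of which 989 were among the 1312. The labels do not say that libraries of a group came from separate cages or preparation days, so p-values measure the spread between these samples only. Below, a gene is said to have risen or fallen only where it was called, and where no lost call is named beside a gene or its list its call held under every alternative run.

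Among the largest rises were those of Mmp12 and Gpnmb, macrophage genes, and of H19, a fetal RNA. Mmp12, the macrophage elastase that degrades elastin, stood at 24.6, 17.1 and 28 CPM on CD-LFD and 263, 296, 297 and 304 CPM on CD-HFD. The 4 CD-HFD values lay close together and far above all 3 CD-LFD values. Its mean went from 23.2 ± 5.60 to 289.8 ± 18.2 CPM (SD, n = 3 and 4; log2 fold change 3.63, SE 0.34, adjusted p = 2.01e-09), and it was 0.273 ± 0.195 CPM in 6 Ripk3KO mice on chow (SD). Gpnmb, a glycoprotein of lipid-laden macrophages, stood at 39.2, 26.8 and 50.8 CPM on CD-LFD and 319, 388, 343 and 453 CPM on CD-HFD (log2 fold change 3.26, SE 0.40, adjusted p = 1.55e-06), against 0.184 ± 0.183 CPM on chow. Again the groups did not overlap. In bulk liver, more cells of a type and more RNA per cell cannot be told apart, and this holds for every cell-type gene described here.

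H19, the imprinted long non-coding RNA of fetal liver, had the largest fitted rise (log2 fold change 4.51, SE 1.0, adjusted p = 0.00277) and the most uneven one. It stood at 0.417, 0.211 and 1.44 CPM on CD-LFD and 67.3, 5.37, 5.42 and 4.18 CPM on CD-HFD. CD-HFD replicate 1 was far above the other 3, which still lay above every CD-LFD library. Without CD-LFD replicate 3 the log2 fold change was 5.93. Without CD-HFD replicate 1 the call was lost (log2 fold change 2.51, adjusted p = 0.0689).

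Other large rises were those of Clec4d, Adam8, Il7r and Timp3. Clec4d, a C-type lectin receptor, stood at 1.25, 1.48 and 2.64 CPM on CD-LFD and 14.8, 18.4, 16.3 and 15.7 CPM on CD-HFD (log2 fold change 3.07, SE 0.44, adjusted p = 1.02e-05). Adam8, a metalloprotease of leukocytes, stood at 7.92, 3.37 and 7.63 CPM on CD-LFD and 44.1, 47.8, 51.1 and 47.4 CPM on CD-HFD (log2 fold change 2.88, SE 0.39, adjusted p = 4.48e-06). Il7r, a cytokine receptor known from lymphocytes, stood at 0.833, 0.632 and 2.87 CPM on CD-LFD and 13.7, 15.2, 8.22 and 11.7 CPM on CD-HFD (log2 fold change 2.85, SE 0.53, adjusted p = 0.000391), and its log2 fold change was 4.03 without CD-LFD replicate 3. In each of the 3 genes the lowest CD-HFD library exceeded the highest CD-LFD library. Timp3, an inhibitor of metalloproteinases, stood at 2.08, 0.843 and 2.19 CPM on CD-LFD and 6.33, 9.54, 12.2 and 22.6 CPM on CD-HFD (log2 fold change 2.83, adjusted p = 0.0144). On chow Timp3 was at 5.91 ± 3.76 CPM (SD, n = 6), a mean above every CD-LFD value. Its CD-HFD values were spread more widely than those of Clec4d or Adam8, and the call was lost without CD-LFD replicate 1 (adjusted p = 0.0524), CD-LFD replicate 2 (0.0947) or CD-HFD replicate 5 (0.0652).

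Another 4 of the 12 largest rises were genes better known from other tissues. Syngr1, a synaptic vesicle protein, stood at 0.417, 0.422 and 2.12 CPM on CD-LFD and 16, 9.10, 8.30 and 10.7 CPM on CD-HFD (log2 fold change 3.17, SE 0.46, adjusted p = 1.25e-05). Vsig8, Pianp and Igdcc4 were rarer, with CD-HFD values of 5.33 to 8.92, 2.45 to 6.06 and 3.84 to 8.83 CPM against at most 2.08, 0.625 and 1.51 CPM on CD-LFD. Their log2 fold changes were 3.40, 3.09 and 2.82, with adjusted p = 0.000381, 0.000662 and 0.00179. Without CD-LFD replicate 3 the log2 fold change was 4.73 for Igdcc4, 4.66 for Syngr1, 3.09 for Pianp and 2.80 for Vsig8. These 4 rises rest on low levels, at most 16.0 CPM in any of the 7 libraries.

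The largest falls were led by Hsd3b5 and major urinary proteins, both typical of the male mouse liver under pulsed growth hormone. Hsd3b5, a steroid-reducing dehydrogenase, stood at 48.9, 91.9 and 40.0 CPM on CD-LFD and 4.16, 0.110, 0.175 and 0.0853 CPM on CD-HFD. A count of 3 was worth 0.303 to 0.369 CPM, before TMM scaling, in the CD-HFD replicates 2, 3 and 5, so those 3 values are under the floor and the fitted log2 fold change of -6.12 (SE 0.89, adjusted p = 1.15e-05) is not sharply bounded. CD-HFD replicate 1 kept the highest level of the diet and still lay below every CD-LFD value. On chow the gene was at 182 ± 29.2 CPM.

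The major urinary proteins (Mup) are pheromone carriers that the liver secretes into urine. Their genes are near-identical copies, so reads may have been shared among them by the counting and the level of a single Mup is uncertain. Of the 12 largest falls, 7 were of Mup genes. Mup7 stood at 324, 426 and 138 CPM on CD-LFD and 14.8, 1.43, 2.71 and 1.02 CPM on CD-HFD (log2 fold change -6.01, SE 0.89, adjusted p = 1.66e-05). Mup21 stood at 389, 579 and 436 CPM on CD-LFD and 54.9, 44.4, 24.3 and 29.3 CPM on CD-HFD (log2 fold change -3.62, SE 0.36, adjusted p = 9.97e-09). In both, no CD-HFD library reached the lowest CD-LFD library. Mup17, Mup12, Mup1, Mup11 and Mup14 had log2 fold changes of -4.33, -4.20, -3.84, -3.65 and -3.54, with adjusted p from 1.74e-06 to 0.00187.

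Other falls among the 12 involved a transferase, a peroxidase and ion channels. Ugt2b38, of the family that couples glucuronic acid to steroids, stood at 20.2, 7.59 and 6.72 CPM on CD-LFD and 1.66, 1.10, 0.437 and 0.683 CPM on CD-HFD (log2 fold change -3.63, SE 0.81, adjusted p = 0.003). Gpx6, a glutathione peroxidase, stood at 13.5, 21.1 and 8.31 CPM on CD-LFD and 0.999, 1.32, 1.22 and 1.79 CPM on CD-HFD (log2 fold change -3.37, SE 0.50, adjusted p = 1.81e-05). Gpx6 was low on chow as well, at 0.830 ± 0.291 CPM, so the high level was that of the CD-LFD group. Chrna4, a nicotinic receptor subunit, stood at 30.0, 8.43 and 9.29 CPM on CD-LFD and 1.17, 0.329, 0.350 and 0.256 CPM on CD-HFD, and Hcn3, a pacemaker channel, stood at 36.7, 39.4 and 24.8 CPM on CD-LFD and 4.66, 6.14, 3.23 and 1.45 CPM on CD-HFD. Their log2 fold changes were -5.05 (SE 1.17, adjusted p = 0.00393) and -3.14 (SE 0.70, adjusted p = 0.00299), and in neither did the groups overlap. Chrna4 had 17 counts in total over the CD-HFD libraries, near the floor of 3 counts per library, so its fold change is not sharply bounded.

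**Figure D1:**
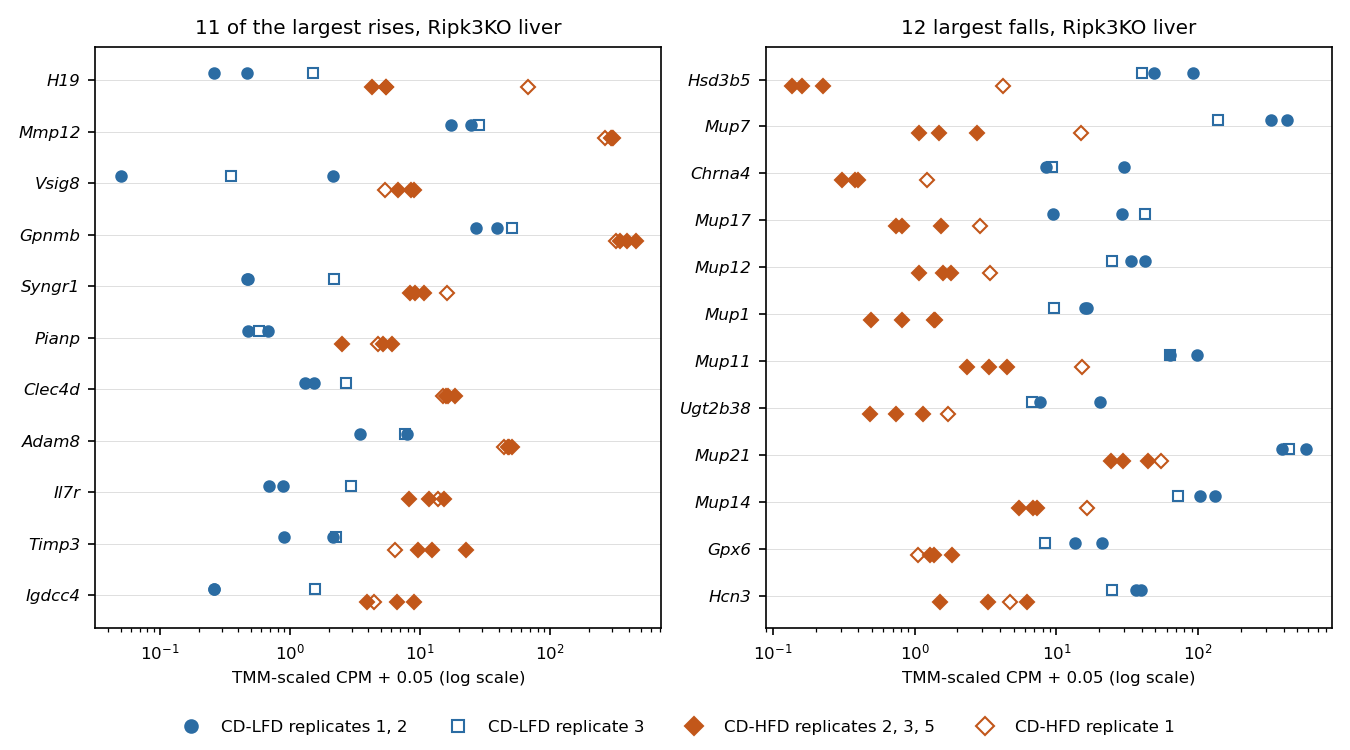
TMM-scaled CPM (log axis, 0.05 added) of 11 of the 12 genes with the largest rises and of the 12 with the largest falls on CD-HFD, 1 marker per library, with CD-LFD in blue (replicate 3 as an open square) and CD-HFD in orange (replicate 1 as an open diamond). The diets do not overlap for any of the 23 genes shown, and CD-HFD replicate 1 is the highest CD-HFD library for H19 (67.3 CPM), Hsd3b5 (4.16 CPM) and Mup7 (14.8 CPM).

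Most lipid-associated macrophage genes were higher on CD-HFD. Of 18 genes tested, 15 were higher on CD-HFD and none lower, against 5.75% higher over all genes, with a median log2 difference of 1.94 against 0.02. The summed level of the list was 1891, 1631 and 2532 CPM on CD-LFD and 4548, 4231, 4168 and 4295 CPM on CD-HFD, so every CD-HFD library was above every CD-LFD library. Leaving out each of the 7 libraries in turn gave 13 to 15 called genes. Trem2, the lipid-sensing receptor that marks these macrophages, stood at 14.2, 11 and 17.5 CPM on CD-LFD and 78.7, 80.9, 66.4 and 70.7 CPM on CD-HFD (log2 fold change 2.36, SE 0.31, adjusted p = 1.77e-06), against 0.837 ± 0.633 CPM on chow. Cd68, a lysosomal protein of macrophages, stood at 24.2, 14.3 and 24 CPM on CD-LFD and 106, 92, 75.3 and 86.7 CPM on CD-HFD (log2 fold change 2.10, SE 0.35, adjusted p = 6.97e-05). Itgax, which encodes the integrin CD11c, stood at 12.3, 4.85 and 13.4 CPM on CD-LFD and 50.4, 52.6, 38.6 and 48.5 CPM on CD-HFD (log2 fold change 2.19, SE 0.35, adjusted p = 5.40e-05). In each of them the 4 CD-HFD values lay within a narrow band, well above the highest CD-LFD value.

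Promoters are shown for Itgax and Cd68 because they rose together and each holds the AP-1 motif, the letters TGAGTCA known to be bound by Fos and Jun proteins. The sequences are the 250 bases before the annotated start in RefSeq, build GRCm38.p6, in the direction of the gene. The matches are in capitals. Both strands were searched for these letters, and a wider form, TGANTCA, was searched as well and is not used here. Itgax is at chr7:128129300-128129549 on the plus strand, with the match starting 56 bases before the start. Cd68 is at chr11:69666171-69666420 on the minus strand, with matches 149 and 24 bases before.
Itgax: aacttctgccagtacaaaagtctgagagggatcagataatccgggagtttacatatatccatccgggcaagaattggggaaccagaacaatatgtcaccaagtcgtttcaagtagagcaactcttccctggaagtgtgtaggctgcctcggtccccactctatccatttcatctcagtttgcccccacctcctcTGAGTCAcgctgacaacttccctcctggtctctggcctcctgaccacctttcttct
Cd68: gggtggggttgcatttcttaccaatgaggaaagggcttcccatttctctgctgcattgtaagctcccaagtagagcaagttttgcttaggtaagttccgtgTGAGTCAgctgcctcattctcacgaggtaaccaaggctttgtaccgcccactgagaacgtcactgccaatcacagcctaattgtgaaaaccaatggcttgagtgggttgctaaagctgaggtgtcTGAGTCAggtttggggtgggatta
Of the list, 15 genes had a promoter in the RefSeq table and 2 held the letters (13.3%). Over all 27025 promoters of that length the share was 4.43% (1197), and over the 10926 promoters of tested genes it was 3.31% (362). Among monocyte and macrophage genes, 0 of 11 promoters held them, and among the named genes 0 of 21 did. A match says only that the letters are there.

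The other members of the macrophage list rose as well, apart from 3. Lgals3, the lectin galectin-3, stood at 55.6, 33.1 and 73 CPM on CD-LFD and 341, 355, 239 and 256 CPM on CD-HFD, and Clec7a, the fungal sugar receptor dectin-1, stood at 11.7, 6.96 and 12.8 CPM on CD-LFD and 42.1, 52.2, 59.1 and 79.2 CPM on CD-HFD. Lpl, the lipase that frees fatty acids from lipoproteins, stood at 121, 80.3 and 135 CPM on CD-LFD and 477, 431, 417 and 331 CPM on CD-HFD. Their log2 fold changes were 2.46, 2.45 and 1.88, with adjusted p = 1.74e-06, 1.15e-05 and 0.000135. Capg, Ctsk, Atp6v0d2, Cd63 and Cd9, which serve actin capping, lysosomal proteolysis and acidification and membrane organisation, had log2 fold changes of 2.18, 1.94, 1.87, 1.74 and 1.20. Fabp5, a fatty acid carrier, rose by 1.93, with the call lost without CD-LFD replicate 2 (adjusted p = 0.0536). The cathepsin Ctsl, the acid lipase Lipa and the annexin Anxa5, which other liver cells also express, were not called, with log2 differences of 0.03, 0.36 and 0.59.

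Spp1, or osteopontin, which duct cells make as well as macrophages, behaved differently within CD-LFD. It stood at 167, 48.3 and 489 CPM on CD-LFD and 1059, 581, 566 and 748 CPM on CD-HFD. CD-LFD replicate 3 approached the CD-HFD libraries while CD-LFD replicate 2 was lowest. The log2 fold change was 1.65 (SE 0.44, adjusted p = 0.0119) and became 2.78 without CD-LFD replicate 3. The call was lost without CD-LFD replicate 1 (adjusted p = 0.0886), CD-LFD replicate 2 (0.121) and in a fit of the compared groups alone (0.0786).

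General monocyte and macrophage genes rose in 13 of 15 cases, against 5.75% over all genes, with none lower and a median of 1.50. Lyz2, lysozyme of myeloid cells, stood at 134, 77.4 and 233 CPM on CD-LFD and 856, 866, 643 and 1009 CPM on CD-HFD (log2 fold change 2.51, SE 0.45, adjusted p = 0.000266). Itgam, the integrin CD11b, stood at 2.92, 1.26 and 3.70 CPM on CD-LFD and 16.5, 12.7, 12.4 and 10.4 CPM on CD-HFD (log2 fold change 2.22, SE 0.37, adjusted p = 8.49e-05). Tyrobp, the adaptor through which Trem2 signals, stood at 12.5, 12.6 and 27.5 CPM on CD-LFD and 86.9, 79.2, 58.8 and 82.5 CPM on CD-HFD (log2 fold change 2.09, SE 0.30, adjusted p = 1.02e-05). In all 3 the groups were apart, with CD-LFD replicate 3 the highest of its diet. The complement genes C1qb and C1qc and the membrane protein Ms4a7 rose by 1.63, 1.58 and 2.14 on the log2 scale, with Ms4a7 at 3.12 without CD-LFD replicate 3.

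For the other 7 called genes of this list the call was less firm. Adgre1, the macrophage antigen F4/80, stood at 4.37, 2.95 and 6.04 CPM on CD-LFD and 16.8, 21.3, 18.7 and 27.5 CPM on CD-HFD (log2 fold change 2.19, SE 0.52, adjusted p = 0.0056), and its call was lost without CD-LFD replicate 2 (adjusted p = 0.0557), as was that of Csf1r (0.053), the receptor that macrophages need to survive. Ccr2, the receptor that brings monocytes into tissue, had a log2 fold change of 1.23 and lost its call in 5 of the 7 fits that left out a library, with adjusted p up to 0.248, while without CD-LFD replicate 3 its log2 fold change was 2.0. The list held 6 called genes without CD-LFD replicate 2, 8 without CD-LFD replicate 1 and 12 without CD-LFD replicate 3. Cx3cr1, a chemokine receptor of monocytes, was not called (log2 difference 0.96, adjusted p = 0.126), but was without CD-LFD replicate 3 (1.81, adjusted p = 0.00913).

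Genes of the resident macrophages of the liver, the Kupffer cells, did not share this pattern. Of 13 tested, 1 was higher and 1 lower, against 5.75% and 3.08% over all genes, with a median of 0.16, and leaving out a library gave 0 to 2 calls. Clec4f, the lectin that defines mouse Kupffer cells, stood at 48.7, 92.1 and 12.4 CPM on CD-LFD and 9.49, 52.4, 45.1 and 54.7 CPM on CD-HFD (log2 difference -0.31, adjusted p = 0.805). Both diets held 1 low library, CD-LFD replicate 3 and CD-HFD replicate 1, and the groups overlapped. Cd5l, a secreted scavenger protein of tissue macrophages, stood at 28.3, 39.2 and 14.2 CPM on CD-LFD and 22.6, 58.7, 99.9 and 134 CPM on CD-HFD and missed the threshold (log2 difference 1.56, adjusted p = 0.0664), which it passed under 5 alternatives, among them leaving out CD-HFD replicate 1 (1.86, adjusted p = 0.0291). The embryonic marker Timd4 had at most 0.341 CPM in any of the 7 libraries. The called pair, Nr1h3 (the oxysterol receptor LXR-alpha, lower, -0.45) and Il18bp (an interleukin-18 decoy, higher, 0.91), lost their calls without CD-LFD replicate 2 (adjusted p = 0.192 and 0.123) and under several other alternatives.

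Stellate cell and matrix genes came next. Of 25 tested, 13 were higher, against 5.75% over all genes, and none lower, with a median log2 difference of 1.13, and 1.50 without CD-LFD replicate 3. Their summed level was 977, 569.8 and 1502 CPM on CD-LFD and 2333, 1972, 2167 and 2404 CPM on CD-HFD. The groups were apart, and CD-LFD replicate 3 lay nearest to CD-HFD. The number called was 3 without CD-LFD replicate 2, 8 without CD-LFD replicate 1 or CD-HFD replicate 5 and 15 without CD-LFD replicate 3. Col3a1, a fibrillar collagen, stood at 63.1, 33.7 and 138 CPM on CD-LFD and 267, 219, 269 and 282 CPM on CD-HFD (log2 fold change 1.72, SE 0.37, adjusted p = 0.00216), with a log2 fold change of 2.42 without CD-LFD replicate 3. Col1a1, the main collagen of scar, stood at 63.1, 22.3 and 75.5 CPM on CD-LFD and 200.4, 166, 181 and 196 CPM on CD-HFD (log2 fold change 1.78, SE 0.41, adjusted p = 0.00366), with its call lost without CD-LFD replicate 2 (adjusted p = 0.063). Tgfb1, the cytokine that drives collagen synthesis, stood at 8.33, 7.38 and 11.7 CPM on CD-LFD and 22.1, 23.2, 23.9 and 26.5 CPM on CD-HFD (log2 fold change 1.36, SE 0.26, adjusted p = 0.000414). In all 3 the lowest CD-HFD value was above the highest CD-LFD value.

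Not all stellate cell genes moved with the collagens. Col5a2 rose by 1.97 (adjusted p = 0.000427). Lum, the collagen-binding proteoglycan lumican, stood at 12.3, 6.11 and 35.8 CPM on CD-LFD and 54.4, 47, 59.4 and 80.5 CPM on CD-HFD, with a log2 fold change of 1.68 that became 2.71 without CD-LFD replicate 3. Its call was lost without CD-LFD replicate 1 (adjusted p = 0.1), CD-LFD replicate 2 (0.147) or CD-HFD replicate 5 (0.0532). Acta2, the smooth muscle actin of contractile myofibroblasts, stood at 5.42, 4.22 and 4.53 CPM on CD-LFD and 4.0, 4.17, 7.69 and 3.92 CPM on CD-HFD (log2 difference 0.08, adjusted p = 0.943). The stellate cell genes Des and Lrat, for desmin and for the enzyme that stores retinol, also overlapped between diets, with log2 differences of 0.14 and 0.07.

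Matrix metalloproteinases and their inhibitors gave 7 of 15 higher, against 5.75% over all genes, and none lower, with a median of 1.32. The 7 are Mmp12, Adam8 and Timp3, given above, and Mmp7, Timp2, Timp1 and Adamts2. The number called was 4 without CD-LFD replicate 1, CD-LFD replicate 2 or CD-HFD replicate 5. Mmp7, or matrilysin, a protease of injured duct epithelium, stood at 1.46, 0.632 and 15.3 CPM on CD-LFD and 65.3, 33.8, 19.1 and 41.6 CPM on CD-HFD (log2 fold change 2.58, SE 0.56, adjusted p = 0.00221). CD-LFD replicate 3 was far above the other CD-LFD libraries, and the log2 fold change without it was 5.23. Timp2, an inhibitor that also helps activate Mmp2, stood at 16.7, 8.01 and 39.4 CPM on CD-LFD and 76.1, 60.2, 57.5 and 89 CPM on CD-HFD (log2 fold change 1.68, SE 0.34, adjusted p = 0.000906), with a log2 fold change of 2.52 without CD-LFD replicate 3. Timp1, the inhibitor most used as a fibrosis marker, stood at 4.58, 1.90 and 4.61 CPM on CD-LFD and 14, 9.65, 8.65 and 10.7 CPM on CD-HFD (log2 fold change 1.49, adjusted p = 0.0332). Its groups were apart, but the call was lost under 6 alternatives, with adjusted p = 0.202 without CD-LFD replicate 2. Adamts2, which trims procollagen, rose by 1.09 and by 1.69 without CD-LFD replicate 3, with the call lost without CD-LFD replicate 1 (adjusted p = 0.174), CD-LFD replicate 2 (0.25) or CD-HFD replicate 1 (0.105), 2 (0.0531) or 5 (0.0678). Mmp2 was not called (log2 difference 1.36, adjusted p = 0.0691), but was without CD-LFD replicate 3 (2.47, adjusted p = 0.00497).

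The promoter of Mmp7 also holds the AP-1 motif, 63 bases before the start. It lies at chr9:7691840-7692089 on the plus strand of GRCm38.p6, taken from RefSeq, and is shown beside the macrophage promoters because Mmp7 had the largest difference of the list after Mmp12, Adam8 and Timp3.
Mmp7: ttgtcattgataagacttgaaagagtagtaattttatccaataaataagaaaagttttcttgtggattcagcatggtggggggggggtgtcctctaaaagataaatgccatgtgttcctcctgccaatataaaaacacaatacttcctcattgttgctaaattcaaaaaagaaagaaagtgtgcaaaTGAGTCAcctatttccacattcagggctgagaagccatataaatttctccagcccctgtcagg
In the table, 15 genes of this list have a promoter, of which 2 held the letters (13.3%; Mmp7 and Mmp13), and of 16 matrix promoters 1 did (Col6a1).

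Genes of bile duct cells and of ductular reactions depended on CD-LFD replicate 3. Of 14 tested, 4 were higher (Spp1, Muc1, Cldn4 and Pkhd1), against 5.75% over all genes, and none lower, with a median of 1.22. Without CD-LFD replicate 3 the count was 8 and the median 2.63, and without CD-LFD replicate 1 or replicate 2 no gene of the list was called. The summed level of the list was 2206, 925 and 2377 CPM on CD-LFD and 2521, 1569, 1959 and 1799 CPM on CD-HFD, and the diets overlapped. The log2 fold changes of Muc1 and Cldn4, a duct mucin and a tight junction protein, were 1.58 and 1.73, and 3.02 and 2.83 without CD-LFD replicate 3. The count was 2 without CD-HFD replicate 1 or replicate 5, and 1 in a fit of the compared groups alone. Epcam, an adhesion molecule of duct epithelium, stood at 5.42, 1.69 and 23 CPM on CD-LFD and 40.3, 22.4, 19 and 31.1 CPM on CD-HFD. Its CD-LFD replicate 3 lay inside the CD-HFD range. The difference of 1.37 missed the threshold (adjusted p = 0.105), and without that library it was 2.97 (adjusted p = 0.00298). Krt19, the keratin of duct cells, stood at 3.12, 1.69 and 13.4 CPM on CD-LFD and 20.1, 12.3, 9.88 and 14.1 CPM on CD-HFD, with a log2 difference of 1.08 (adjusted p = 0.13) and 2.53 without CD-LFD replicate 3. Pkhd1, a cilium protein of ducts, stood at 4.17, 5.90 and 10.8 CPM on CD-LFD and 24.1, 13.7, 12.1 and 24.5 CPM on CD-HFD (log2 fold change 1.35, SE 0.35, adjusted p = 0.00989), with its call lost without CD-LFD replicate 1 (adjusted p = 0.0909) or 2 (0.0735).

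**Figure D2:**
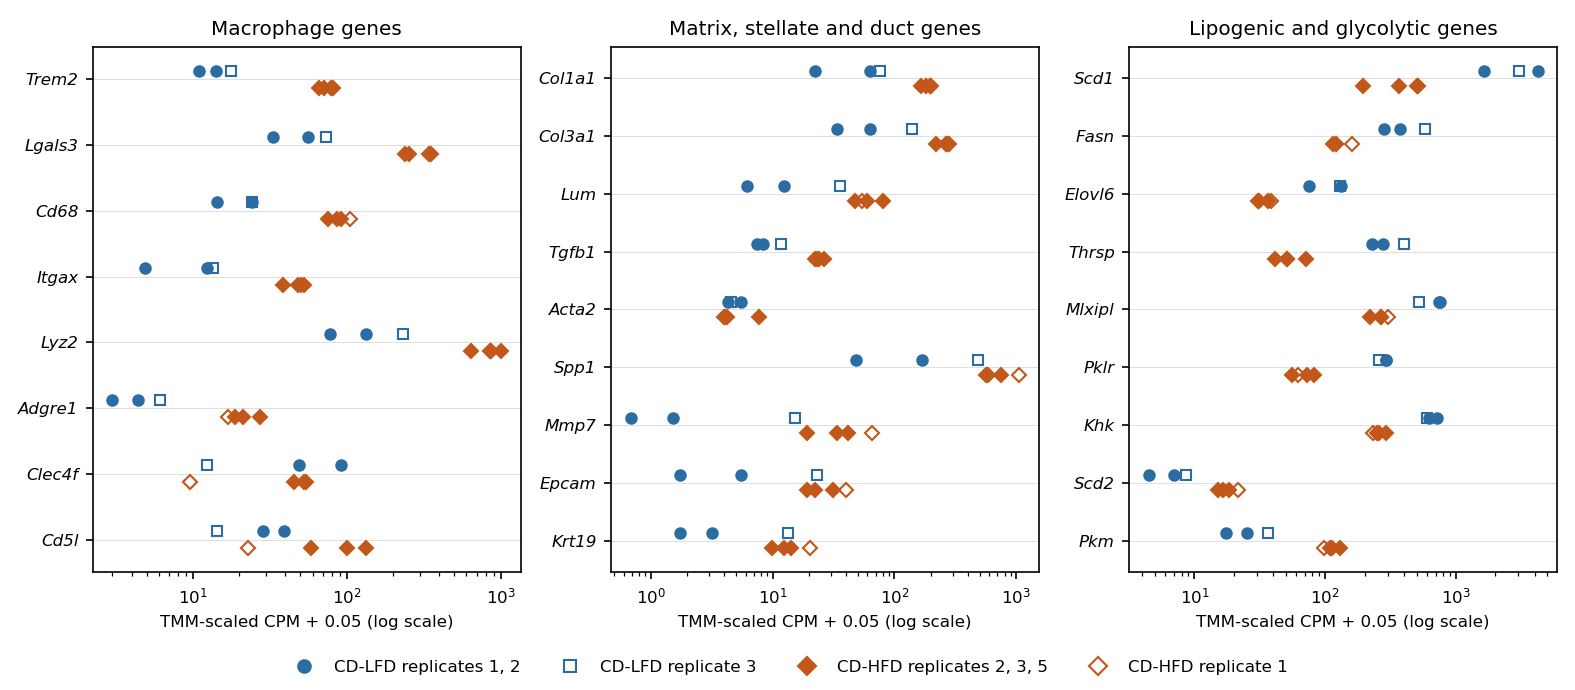
TMM-scaled CPM (log axis, 0.05 added) of macrophage genes, of matrix, stellate cell and duct genes, and of fat and sugar metabolism genes, 1 marker per library, with CD-LFD in blue (replicate 3 as an open square) and CD-HFD in orange (replicate 1 as an open diamond). Trem2, Lgals3 and Pkm separate the diets fully, Scd1 and Pklr do so in the other direction, and for Epcam and Krt19 the open square of CD-LFD replicate 3 lies among the CD-HFD markers.

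Chemokine genes were higher in 8 of 23 cases (34.8%, against 5.75% over all genes) and never lower, with a median of 1.09. The count was 3 without CD-LFD replicate 2 and 5 without CD-LFD replicate 1. Ccl6, a macrophage chemokine of the mouse, stood at 6.67, 5.90 and 4.91 CPM on CD-LFD and 17.8, 27.3, 24 and 38.6 CPM on CD-HFD (log2 fold change 2.23, SE 0.45, adjusted p = 0.00109). Cxcr4, the receptor that holds leukocytes in tissue, stood at 2.71, 3.37 and 3.78 CPM on CD-LFD and 11.8, 9.76, 10.4 and 9.47 CPM on CD-HFD (log2 fold change 1.62, SE 0.37, adjusted p = 0.00328). Both separated the diets fully. Ccl3, which draws monocytes, rose by 2.32 (3.05 without CD-LFD replicate 3), and its receptor Ccr1 by 2.05, with both calls lost without CD-LFD replicate 2 (adjusted p = 0.113 and 0.0901). Ccl2, the ligand of Ccr2, was not called, at 5.0, 1.90 and 5.36 CPM on CD-LFD and 7.33, 6.25, 7.43 and 5.20 CPM on CD-HFD (log2 difference 0.63, adjusted p = 0.488).

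Antigen presentation genes gave 4 of 15 higher (26.7%, against 5.75% over all genes), with a median of 1.0. The 4 were Cd74, the invariant chain of MHC class II, with H2-DMa, H2-DMb1 and H2-Ab1, which load and form the class II complex. Cd74 stood at 137, 84.1 and 187 CPM on CD-LFD and 226, 444, 235 and 405 CPM on CD-HFD (log2 fold change 1.27, SE 0.32, adjusted p = 0.00929). CD-HFD replicates 2 and 5 were the highest, and the diets did not overlap. The count was 0 without CD-LFD replicate 2, 1 without CD-LFD replicate 1, 2 without CD-HFD replicate 5 and 9 without CD-LFD replicate 3, where the log2 fold change of H2-DMb1 was 1.87 in place of 1.23. T and NK cell genes gave 0 of 18 calls in either direction, although their median was 1.15. Their summed level was low, at 17.7, 22.8 and 36.9 CPM on CD-LFD and 39.1, 57.6, 28.4 and 75.7 CPM on CD-HFD, and the diets overlapped. B and plasma cell genes gave 0 of 9 calls with a median of -0.12, and 1.08 without CD-LFD replicate 3, which alone had 76.1 CPM of Ighm and 59 CPM of Igkc, genes of antibody chains. Neutrophil genes gave 0 of 5.

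Cytokine-response genes were mostly not called, and with 2 higher in each of the lists below their shares lay near the 5.75% over all genes. TNF and NF-kappaB genes gave 2 of 19 higher with a median of 0.58, Vcam1 (a vascular adhesion molecule, 1.27) and Nfkbie (an NF-kappaB inhibitor, 0.87). Interferon-stimulated genes gave 2 of 20 higher with a median of 0.53, Oasl2 (1.28) and Ifit2 (1.21). No TNF list gene was called without CD-LFD replicate 1 or CD-HFD replicate 5 and 1 without CD-HFD replicate 1 or 3, and 1 interferon gene was called without CD-HFD replicate 3 or 5. All 4 calls were lost without CD-LFD replicate 2 (adjusted p = 0.0847, 0.261, 0.148 and 0.23). Tnf itself stood at 1.04, 0.632 and 1.59 CPM on CD-LFD and 2.83, 3.40, 1.57 and 2.22 CPM on CD-HFD and was not called (log2 difference 1.08, adjusted p = 0.186).

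Genes of necroptosis, apoptosis and pyroptosis gave 2 of 23 higher (8.70%, near the 5.75% over all genes) and none lower, with a median of 0.30. The called genes were Casp1 and Pycard. Casp1, the protease of the inflammasome, the complex that matures interleukin-1 beta, stood at 5.21, 3.58 and 5.06 CPM on CD-LFD and 16.1, 12, 8.74 and 10.9 CPM on CD-HFD (log2 fold change 1.35, SE 0.34, adjusted p = 0.00957), with the diets apart. Pycard, its adaptor, stood at 0.833, 2.95 and 4.08 CPM on CD-LFD and 10.7, 6.25, 7.17 and 6.48 CPM on CD-HFD (log2 fold change 1.44, adjusted p = 0.0219). Without CD-LFD replicate 1 or CD-HFD replicate 1 only Casp1 was called, and without CD-LFD replicate 2 neither was (adjusted p = 0.078 and 0.079). The sensor Nlrp3 and the pore former Gsdmd differed by 0.52 and 0.26 without a call. Upstream of Ripk3, the kinase Ripk1, the protease Casp8 and the nucleic acid sensor Zbp1 were not called, with log2 differences of 0.08, -0.07 and 0.73.

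Dividing-cell genes rose in 5 of 23 cases (21.7%, against 5.75% over all genes), with none lower and a median of 0.82. Cdk1, the kinase that starts mitosis, stood at 3.12, 2.74 and 3.17 CPM on CD-LFD and 7.66, 8.11, 7.17 and 6.83 CPM on CD-HFD (log2 fold change 1.29, SE 0.27, adjusted p = 0.00134). Top2a, which untangles DNA in dividing cells, stood at 3.54, 3.37 and 3.55 CPM on CD-LFD and 11.2, 8.33, 11.8 and 9.04 CPM on CD-HFD (log2 fold change 1.52, SE 0.35, adjusted p = 0.0039). Mki67, the proliferation antigen, stood at 7.92, 10.3 and 7.55 CPM on CD-LFD and 22.8, 20.0, 27.7 and 17.6 CPM on CD-HFD (log2 fold change 1.37, adjusted p = 0.0106), with its call lost without CD-LFD replicate 1 (adjusted p = 0.0559) or 3 (0.05). In all 3 every CD-HFD library was above every CD-LFD library, at levels of at most 27.7 CPM. The count was 2 without CD-LFD replicate 1 and 3 without CD-LFD replicate 2, CD-LFD replicate 3 or CD-HFD replicate 3. Ccnd1, the cyclin of entry into the cycle, was not called, at 81, 85.6 and 69.7 CPM on CD-LFD and 49.6, 72, 82.6 and 88.1 CPM on CD-HFD.

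Of 16 oncofetal and liver tumour markers 5 were higher (31.2%, against 5.75% over all genes), with a median of 1.06, and 3 were called without CD-LFD replicate 1, CD-HFD replicate 1 or CD-HFD replicate 5 and 2 without CD-LFD replicate 2. Besides H19 they were Akr1b8, an aldose reductase of tumours (1.98, adjusted p = 0.00033), the hyaluronan receptor Cd44 (1.45), Tspan8 (1.48) and Golm1 (1.81). The last 3 lost their calls without CD-LFD replicate 2 (adjusted p = 0.0619, 0.208 and 0.188), and the log2 fold change of Tspan8 was 2.70 without CD-LFD replicate 3. Afp, alpha-fetoprotein, the serum marker of liver cancer, stood at 5.83, 4.85 and 6.57 CPM on CD-LFD and 11, 5.37, 8.22 and 4.95 CPM on CD-HFD and was not called (log2 difference 0.33, adjusted p = 0.604). NRF2 targets gave 5 of 19 higher beside a median of -0.18 (0.04 with scaling by totals alone), so the list did not move as one. Slc7a11, the cystine importer, stood at 0.833, 0.422 and 0.680 CPM on CD-LFD and 4.16, 4.93, 3.50 and 3.92 CPM on CD-HFD (log2 fold change 2.63, SE 0.54, adjusted p = 0.00137). G6pdx, which makes NADPH, stood at 6.04, 4.64 and 8.69 CPM on CD-LFD and 19.8, 19.1, 19.1 and 17.7 CPM on CD-HFD (log2 fold change 1.51, SE 0.27, adjusted p = 0.000227). Hmox1, which breaks down haem and is high in macrophages, stood at 26.5, 19 and 20.2 CPM on CD-LFD and 43.6, 59.8, 68.5 and 55.2 CPM on CD-HFD (log2 fold change 1.38, adjusted p = 0.0112, and 0.0787 without CD-LFD replicate 2, which left 3 called genes in the list). The classical targets Nqo1 and Gclc were not called.

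In the opposite direction, genes of fat synthesis fell. Of 19 de novo lipogenesis genes 9 were lower and 1 higher, against 3.08% lower over all genes, with a median of -1.18. Their summed level was 9554, 8062 and 8037 CPM on CD-LFD and 3229, 3755, 3452 and 3527 CPM on CD-HFD, which separated the diets by more than the range within either. The count of lower genes was 6 without CD-LFD replicate 3 or CD-HFD replicate 5. Scd1, the desaturase that makes oleate and one of the most abundant lipogenic transcripts, stood at 4212, 1648 and 3045 CPM on CD-LFD and 516, 193, 368 and 506 CPM on CD-HFD (log2 fold change -2.91, SE 0.59, adjusted p = 0.001). Pklr, the liver pyruvate kinase that feeds lipogenesis, stood at 293, 292 and 258 CPM on CD-LFD and 62.3, 82.1, 72.8 and 55.7 CPM on CD-HFD (log2 fold change -2.04, SE 0.51, adjusted p = 0.00825). Mlxipl, the sugar-sensing transcription factor ChREBP that drives Pklr, stood at 740.5, 756 and 525 CPM on CD-LFD and 300.2, 265, 267 and 222 CPM on CD-HFD (log2 fold change -1.36, SE 0.33, adjusted p = 0.00672). All 3 separated the diets fully.

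The enzymes that build the fatty acid chain followed. Fasn, fatty acid synthase, stood at 377, 282 and 582 CPM on CD-LFD and 162, 122, 115 and 122 CPM on CD-HFD (log2 fold change -1.67, adjusted p = 0.00734), with the call lost without CD-LFD replicate 3 (adjusted p = 0.0531), which was its highest library. Acaca, which makes malonyl-CoA, stood at 103, 95.3 and 101 CPM on CD-LFD and 43.8, 40.0, 42.4 and 40.8 CPM on CD-HFD (log2 fold change -1.26, adjusted p = 0.0218), with the call lost without CD-LFD replicate 1 (0.0699), CD-LFD replicate 2 (0.0654) or CD-HFD replicate 5 (0.0586). Its 4 CD-HFD values lay close together. Elovl6, an elongase, and Thrsp, a regulator of lipogenesis, fell by 1.71 and 2.49 on the log2 scale, and each lost its call in 4 of the 7 fits that left out a library. Agpat2, of triglyceride synthesis, fell by 0.80. Scd2, the desaturase of other tissues, rose from 6.87, 4.43 and 8.54 to 21.5, 15.1, 16.4 and 18.3 CPM (log2 fold change 1.39, SE 0.36, adjusted p = 0.0107), with the call lost without CD-LFD replicate 2 (0.0992). Srebf1, the insulin-driven regulator of these enzymes, and Acly, which makes their acetyl-CoA, were not called (-0.50, adjusted p = 0.404, and -0.66, adjusted p = 0.427).

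Among 19 genes of glycolysis and gluconeogenesis, 3 were higher and 3 lower, against 5.75% and 3.08% over all genes. The lower ones included Pklr, the pyruvate kinase of liver, and Khk, which phosphorylates fructose. Khk stood at 623, 711 and 605 CPM on CD-LFD and 231, 289.9, 257 and 248 CPM on CD-HFD (log2 fold change -1.33, SE 0.28, adjusted p = 0.00182). The higher ones were Pkm, Hk1 and Hk3, isoforms of other tissues and of leukocytes. Pkm stood at 25, 17.3 and 36.5 CPM on CD-LFD and 97.4, 109, 113 and 129.6 CPM on CD-HFD (log2 fold change 2.08, SE 0.26, adjusted p = 1.55e-06). Hk3, the hexokinase of myeloid cells, stood at 6.67, 6.53 and 6.19 CPM on CD-LFD and 31.5, 34.8, 28 and 36.2 CPM on CD-HFD (log2 fold change 2.34, SE 0.32, adjusted p = 5.19e-06). Pklr and Pkm, for instance, both encode pyruvate kinases, and the first fell by 2.04 while the second rose by 2.08. The median of the list was -0.23, and 0.01 with scaling by totals alone. Hk1 lost its call without CD-LFD replicate 1 (0.0625), CD-LFD replicate 2 (0.127) or CD-HFD replicate 5 (0.0678), all as adjusted p.

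Other lipid genes moved less, and the shares over all genes were 5.75% higher and 3.08% lower. Of 20 genes of fatty acid uptake and lipoproteins, 3 were higher (Lpl, the fatty acid carrier Fabp4 and the fatty acid translocase Cd36) and 4 lower (Fabp1, Apoa2, Apoc3 and Lipc), and 1 higher and none lower without CD-LFD replicate 2, and 2 lower without CD-HFD replicate 1. Cd36 lost its call in 4 of the 7 fits that left out a library (adjusted p up to 0.148) and Apoc3 in all 7 (up to 0.135). Fabp4 stood at 8.75, 7.17 and 9.14 CPM on CD-LFD and 27, 26.4, 26.8 and 31.2 CPM on CD-HFD (log2 fold change 1.73, adjusted p = 0.00604). Fabp1, the fatty acid carrier of hepatocytes, stood at 4084, 4434 and 3075 CPM on CD-LFD and 1668, 1884, 1338 and 1186 CPM on CD-HFD (log2 fold change -1.35, adjusted p = 0.0101). The macrophage and adipocyte isoform was thus higher and the hepatocyte isoform lower, with no overlap in either. Both calls were lost without CD-LFD replicate 2 (adjusted p = 0.05 and 0.0641). Fatty acid oxidation and PPAR-alpha targets gave 1 of 23 lower (the thiolase Acaa1b, which lost its call in each fit that left out a library, with adjusted p up to 0.147), with Ppara at -0.12 and Cpt1a at 0.35 and neither called. Lipid droplet genes gave 1 of 18 lower, the lipase Mgll (adjusted p = 0.154 and no call without CD-LFD replicate 2). Plin2, the coat protein whose level tracks stored fat in liver, stood at 947, 657 and 566 CPM on CD-LFD and 377, 537, 705 and 551 CPM on CD-HFD and was not called (log2 difference -0.41, adjusted p = 0.562). Cholesterol synthesis gave 2 of 22 lower, among them Insig1 (-0.99), and 0 without CD-LFD replicate 1, CD-LFD replicate 2, CD-HFD replicate 3 or CD-HFD replicate 5.

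Since both diets lack choline, genes of choline and phosphatidylcholine metabolism were read as a list. Of 25, 1 was higher and 2 lower (none without CD-LFD replicate 2), near the 5.75% and 3.08% over all genes, with a median of -0.06, or 0.18 with scaling by totals alone. Pemt, which makes phosphatidylcholine without dietary choline, stood at 333, 381 and 383 CPM on CD-LFD and 222, 240.2, 203 and 201 CPM on CD-HFD (log2 fold change -0.76, SE 0.19, adjusted p = 0.00889). Its groups did not overlap, and the call was lost without CD-LFD replicate 2 (adjusted p = 0.0503). Pcyt2, of phosphatidylethanolamine synthesis, was just under the threshold (log2 fold change -0.86, adjusted p = 0.0491) and lost its call under most alternatives. Slc44a2, a choline transporter, rose by 1.10, with its call lost without CD-LFD replicate 1 (0.0552) or 2 (0.127). Pcyt1a, the rate-limiting enzyme of the choline route, was not called (0.44).

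Liver genes set by growth hormone and sex included further falls. Of 20 such genes 9 were lower, against 3.08% over all genes, and none higher, with a median of -0.82, and 7 to 9 were lower when 1 library was left out. Of the 9, 6 are Mup genes (6 of 7 in the list) and 3 are not (3 of 13, Hsd3b5, Elovl3 and Cyp4a12a, with a median of -0.26 over the 13). Mup3, among the most abundant of the family here, stood at 2623, 3283 and 2306 CPM on CD-LFD and 744, 792, 561 and 804 CPM on CD-HFD (log2 fold change -1.92, SE 0.26, adjusted p = 3.12e-06). Elovl3, a male-biased elongase, stood at 48.5, 71.2 and 47.9 CPM on CD-LFD and 17, 7.79, 5.86 and 6.65 CPM on CD-HFD (log2 fold change -2.61, SE 0.64, adjusted p = 0.00663). Cyp4a12a, a male-specific hydroxylase of arachidonic acid, fell by 1.47. The diets were apart in all 3. Genes of the hormone's own path were not called. The log2 difference was -0.64 for the receptor Ghr, 0.03 for the transcription factor Stat5b, -0.16 for the growth factor Igf1 and 0.40 for the feedback inhibitor Socs2, with adjusted p = 0.0773, 0.957, 0.751 and 0.789.

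Bile acid and drug metabolism gave further falls. Slco1a1, a male-biased anion importer, stood at 139, 256 and 109 CPM on CD-LFD and 46.8, 20.7, 13.6 and 13.1 CPM on CD-HFD (log2 fold change -2.85, SE 0.49, adjusted p = 0.000126). Cyp7b1, of the alternative bile acid route, stood at 180.2, 187 and 103 CPM on CD-LFD and 67.1, 45.5, 34.1 and 36.3 CPM on CD-HFD (log2 fold change -1.78, SE 0.38, adjusted p = 0.00186). Cyp2d9, a male-biased testosterone hydroxylase, stood at 875, 1027 and 1100.3 CPM on CD-LFD and 395, 327, 270.5 and 248 CPM on CD-HFD (log2 fold change -1.69, SE 0.27, adjusted p = 4.00e-05). These 3 separated the diets. Cyp7a1, the rate-limiting enzyme of the classical bile acid route, was not called (log2 difference 1.20, adjusted p = 0.337). Over the lists, against 3.08% lower over all genes, bile acid genes gave 3 of 18 lower and 1 higher (the exporter Abcc4, at 1.41, or 0.79 without CD-HFD replicate 3, with no call without CD-LFD replicate 1, CD-LFD replicate 2 or CD-HFD replicate 3), and cytochrome P450 and conjugation genes gave 6 of 24 lower, and 1 without CD-LFD replicate 2. Pericentral and Wnt target genes gave 2 of 13 lower, of which Glul, the glutamine synthetase of cells around the central vein, stood at 1341, 1787 and 2408 CPM on CD-LFD and 1293, 827, 912 and 994 CPM on CD-HFD (log2 fold change -0.87, SE 0.22, adjusted p = 0.00938). Without CD-LFD replicate 3, its highest library, the log2 difference of Glul was -0.64 (adjusted p = 0.0955) and the list held no called gene, while it held 1 without CD-LFD replicate 2, CD-HFD replicate 2 or CD-HFD replicate 5.

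Against 5.75% higher and 3.08% lower over all genes, the remaining lists held few calls. Hepatocyte identity genes gave 1 of 17 lower, Ttr, a carrier of thyroid hormone (-0.89, adjusted p = 0.0183, and 0.0847 without CD-LFD replicate 2). Alb stood at 65374, 98201 and 50403 CPM on CD-LFD and 42133, 64173, 56489 and 57724 CPM on CD-HFD (log2 difference -0.37, adjusted p = 0.412) and Hnf4a, the master regulator of hepatocytes, differed by -0.31 (adjusted p = 0.498). The diets overlapped in Alb and Hnf4a. Acute phase genes gave 1 of 18, Hamp2, a hepcidin gene, at 7.92, 3.58 and 8.31 CPM on CD-LFD and 0.832, 1.32, 1.31 and 2.05 CPM on CD-HFD (log2 fold change -2.23, SE 0.55, adjusted p = 0.0073), a near copy of Hamp with which it may share reads. Hamp was -1.02 and not called (adjusted p = 0.164), and Lcn2, a siderophore binder of injured liver, was 2.43 and not called (0.0884). Unfolded protein genes gave 0 of 19 calls with a median of -0.60, heat shock chaperones 1 of 11 (Hspa8), p53 targets 0 of 15, core clock genes 0 of 17 and endothelial genes 1 of 15 (Fcgr2b). The calls of Hspa8 and Fcgr2b were lost without CD-LFD replicate 2 (adjusted p = 0.0794 and 0.0566). Red cell, fat and pancreas genes gave 0 of 6, with a summed level of 164 to 207 CPM on CD-LFD and 71.6 to 161 CPM on CD-HFD. Xist was called lower (-3.54, adjusted p = 0.0104), with 10.9 CPM in CD-LFD replicate 3 and at most 0.499 CPM in the other 6 libraries, and its difference was 0.68 without CD-LFD replicate 3.

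**Figure D3:**
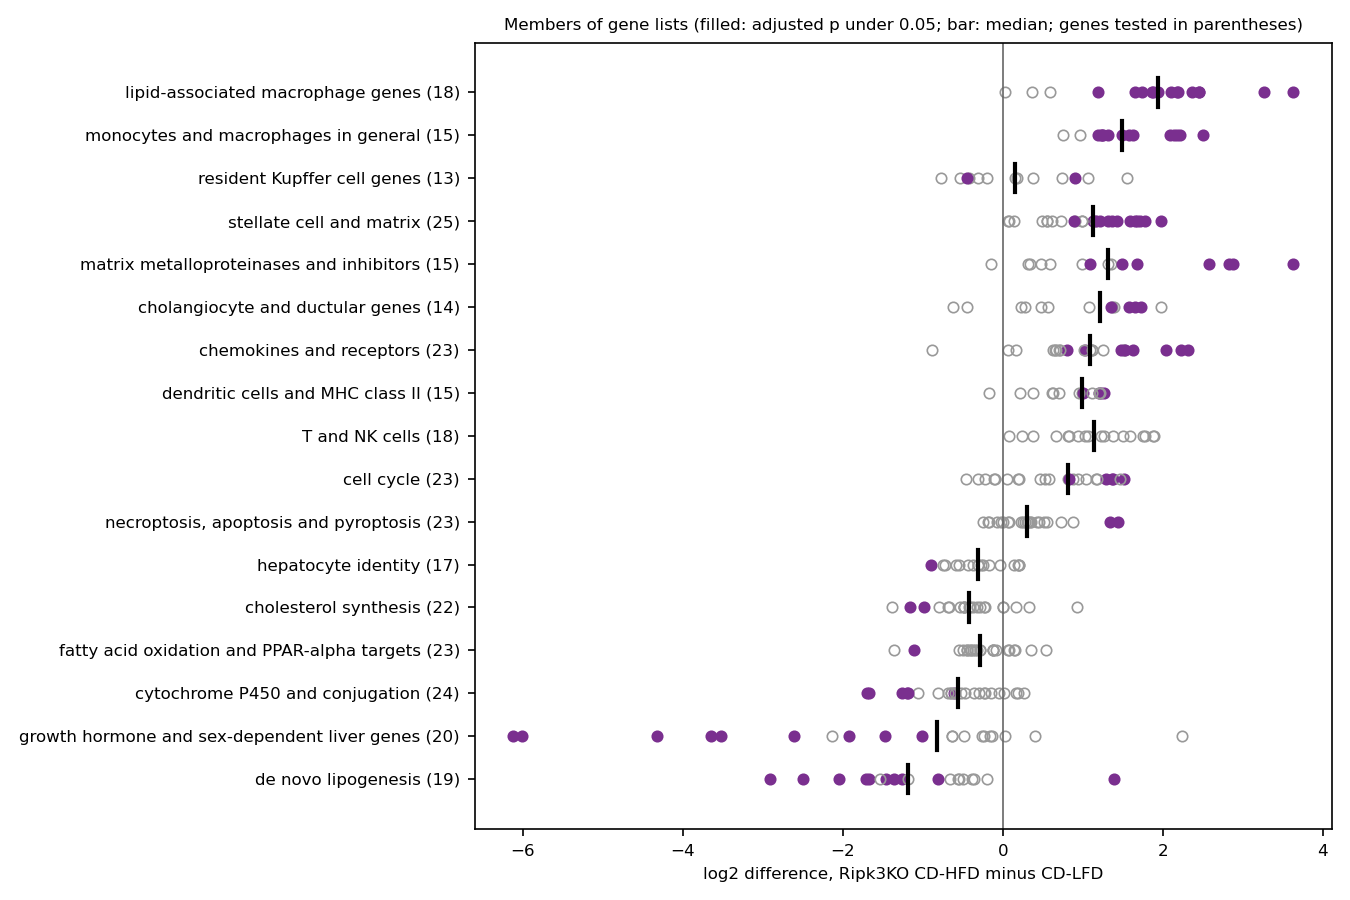
Log2 difference between CD-HFD and CD-LFD for the tested genes of 17 lists, 1 point per gene, filled where the adjusted p was under 0.05, with a bar at the median of each list. The lipid-associated macrophage genes (median 1.94) and monocyte and macrophage genes (1.50) lie furthest to the higher side, and de novo lipogenesis (-1.18) and the growth hormone and sex-dependent genes (-0.82) to the lower side.

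The same diet comparison was set beside that in the other genotypes, to ask whether the response of mice without Ripk3 differed. In WT mice (6 against 6) 3140 genes were called, 21.1% of those tested, and in MlklKO mice (3 on CD-HFD against 4 on CD-LFD) 3523, or 23.7%. These counts do not rank the responses, since a count moves with single libraries, as the range of 500 to 1321 in Ripk3KO shows, and with the number of libraries, which is larger in WT mice. The log2 ratio of Arntl to Dbp was -2.66 to -0.276 in WT mice on CD-LFD against -6.24 to -4.71 in 5 of 6 on CD-HFD, with replicate 3 at -2.12, so the ratio moved with diet in all WT libraries but that one. With the ratio as a covariate the interaction with WT again called 0 genes by edgeR, with 548 at an unadjusted p under 0.05. In MlklKO mice it was -7.05 to -5.85 on CD-LFD and -6.10 to -5.19 on CD-HFD. The deleted gene was checked in the MlklKO libraries as well. Mlkl stood at 2.98 to 4.15 CPM in the 4 on CD-LFD, and at 12.5, 4.83 and 2.80 CPM in replicates 1, 2 and 4 on CD-HFD. The library labelled MlklKO CD-HFD replicate 1 thus lay within the 9.49 to 20.5 CPM of the Ripk3KO libraries, in which Mlkl is intact. Without it, an alternative chosen after its value was seen, 3065 genes were called in MlklKO mice. The difference between genotypes was tested directly as an interaction. No gene was called for Ripk3KO against WT (0% of 14862 by edgeR, with 541 at an unadjusted p under 0.05 and 1 gene called by DESeq2) or for Ripk3KO against MlklKO (0%, with 424 unadjusted and 2 called by DESeq2). A missed threshold does not show that the genotypes responded alike.

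Side by side, the log2 fold changes of the 24 genes with the largest changes had the same sign in the 3 genotypes, also without the library labelled MlklKO CD-HFD replicate 1. The 24 were picked by their change in Ripk3KO mice, so the Ripk3KO values may be overstated in size. The shared sign was not set against that over all genes. For Mmp12 the log2 fold change was 3.63 (SE 0.34) in Ripk3KO, 3.76 (SE 0.25) in WT and 3.66 (SE 0.31) in MlklKO mice. For Gpnmb it was 3.26 (SE 0.40), 2.93 (SE 0.29) and 3.49 (SE 0.37). The unadjusted interaction p of Ripk3KO against WT and against MlklKO was 0.736 and 0.952 for Mmp12 and 0.466 and 0.651 for Gpnmb by edgeR. For Hsd3b5 the values were -6.12 (SE 0.89), -4.31 (SE 0.61) and -7.20 (SE 1.07), the last being -7.87 without the library labelled MlklKO CD-HFD replicate 1. For Gpx6 the log2 fold change was -3.37 (SE 0.50) in Ripk3KO and -1.87 (SE 0.39) in WT mice, with an unadjusted interaction p of 0.0239 by edgeR, and -2.57 (SE 0.55) in MlklKO mice, with 0.292. For Mup21 the values were -3.62 (SE 0.36), -2.54 (SE 0.28) and -4.66 (SE 0.42), with unadjusted interaction p of 0.0164 against WT and 0.0429 against MlklKO by edgeR. Igdcc4 stood at 2.82 (SE 0.60) in Ripk3KO and 4.82 (SE 0.60) in MlklKO mice, with an unadjusted interaction p of 0.0275 by edgeR, and 3.11 (SE 0.46) in WT mice, with 0.697, and without CD-LFD replicate 3 its Ripk3KO value was 4.73. Ugt2b38 stood at -3.63 (SE 0.81) in Ripk3KO and -1.45 (SE 0.58) in WT mice, with an unadjusted interaction p of 0.0389 by edgeR, and -2.47 (SE 0.80) in MlklKO mice, with 0.324. After adjustment every one of these interaction p-values was 1.

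The share of all tested genes called higher was 5.75% in Ripk3KO, 13.7% in WT and 14.6% in MlklKO mice, and the share called lower was 3.08%, 7.4% and 9.14%, so larger list counts in WT and MlklKO stand beside a larger share over all genes. By list, lipid-associated macrophage genes were called higher in 15 of 18 in Ripk3KO, 15 in WT and 17 in MlklKO mice, with medians of 1.94, 2.14 and 2.26. De novo lipogenesis genes were called lower in 9, 14 and 9 of 19, with medians of -1.18, -1.45 and -1.02. Matrix genes were higher in 13, 20 and 20 of 25, with medians of 1.13, 1.21 and 1.61. Duct genes were higher in 4, 10 and 10 of 14, with medians of 1.22, 1.59 and 2.26, beside a Ripk3KO median of 2.63 without CD-LFD replicate 3. Interferon-stimulated genes were higher in 2, 11 and 2 of 20, with 1 lower in MlklKO. Without the library labelled MlklKO CD-HFD replicate 1, the MlklKO counts of these 5 lists became 15 higher, 8 lower, 20 higher, 10 higher and 1 higher, and the interaction with MlklKO again called 0 genes by edgeR, with 471 at an unadjusted p under 0.05. No gene of any of these lists was called in an interaction.

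**Figure D4:**
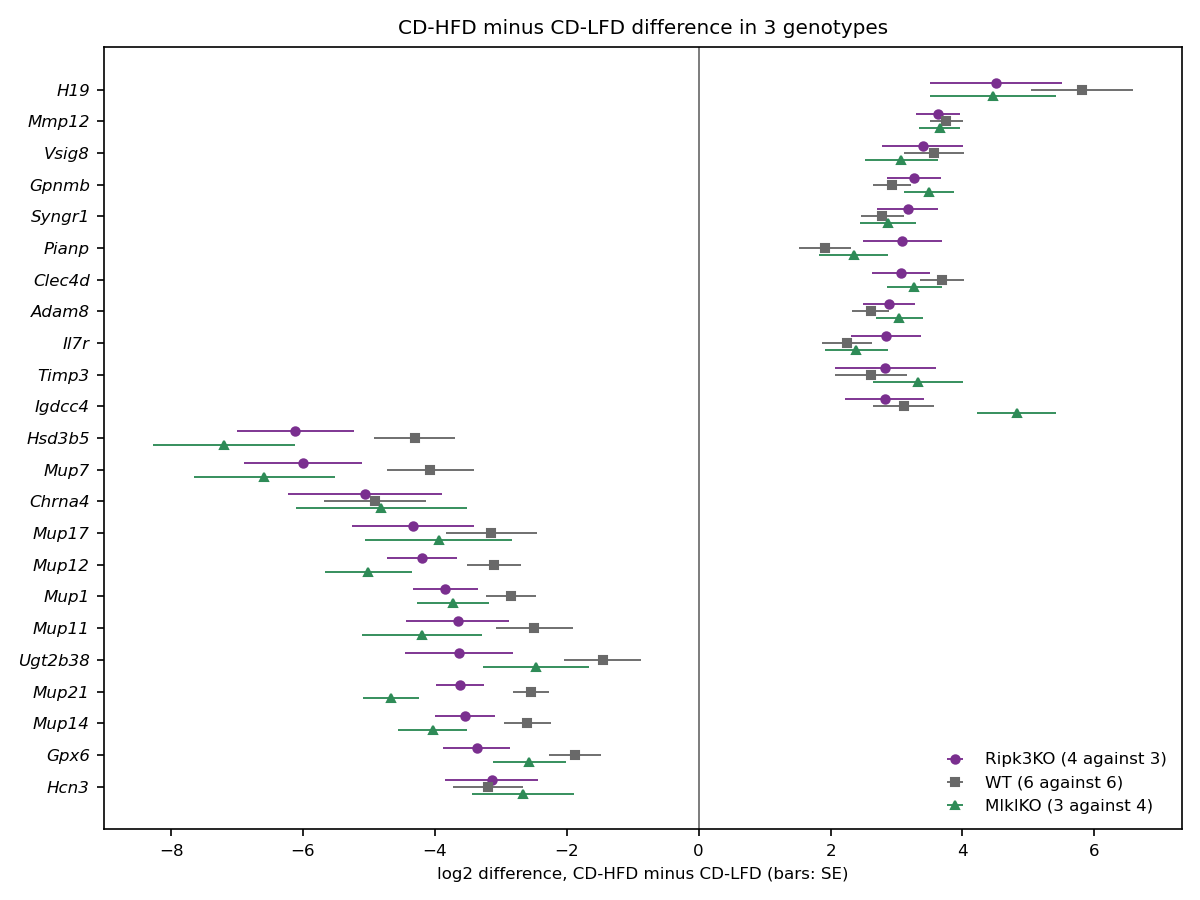
Log2 fold change between CD-HFD and CD-LFD, with its standard error as a bar, of 23 of the 24 genes with the largest changes in Ripk3KO mice (purple circles, 4 against 3 libraries), in WT mice (grey squares, 6 against 6) and in MlklKO mice (green triangles, 3 against 4). All 3 genotypes lie on the same side of 0 for each gene shown. For Gpx6 (-3.37 in Ripk3KO, -1.87 in WT) and some other genes the bars of these genotypes do not touch. No gene shown was called in an interaction by edgeR.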

How the data were processed

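The authors deposited unnormalised read counts as 1 table of 44 libraries and 35249 Ensembl genes. The submitters' processing notes name FastQC, STAR, HTSeq, edgeR and limma and the builds GRCm39 and mm39, with no versions. The strand setting of the counting is not given in the sources used here, so reads of overlapping and antisense genes cannot be told apart. Symbols were matched for 34373 genes from the reference tables.

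Groups were taken from the labels. Genes were kept by filterByExpr (minimum count 10), which retained 14862 genes and 99.8% of counts. After TMM scaling, edgeR 4.0.16 (R 4.3.3, limma 3.58.1) fitted its quasi-likelihood model with 1 mean per group over all 44 libraries, so that groups of 3 and 4 shared the estimate of the spread. SE is the log2 fold change divided by the square root of F. Interactions were contrasts of the same fit. The floor of 3 counts reflects counting error alone, as reads carry no molecular identifiers. No library pair was a duplicate (chi-square per degree of freedom 6.59 to 26.4 within the groups compared).

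Genes were named by a rule, which took Ripk3, Mlkl and the 12 largest rises and 12 largest falls among called genes with a symbol, no overlap between the diets and a mean log2 CPM of 1 or more (708 higher and 378 lower qualified). Genes of the pathway and cell-type lists were named from within those lists. Some genes that the rule or the lists take are counted but not reported here by name. The comparison and the lists were chosen with earlier results of these data known. Alternatives were DESeq2 1.42.0, other scalings, no count filter, other sets of fitted libraries, a clock covariate, a replicate block and leaving out each library.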

Additional observations from a re-analysis of the deposited data

Results flagged for a closer look

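Values were screened in the 4 CD-HFD libraries for a library far from the other 3, by Dixon's ratio over 214 genes. Chance flags about 1 in 20 such groups where values are normal and genes independent. The values screened were CPM without a log scale, and many of the genes are related, so this rate may not hold here. In all, 17 genes passed. CD-HFD replicate 1 was the distant library in 12 of them. It was the highest of the diet for H19 (67.3 CPM), Hsd3b5 (4.16 CPM), Mup7 (14.8 CPM), Mup11 (15.0 CPM), Mup14 (16.3 CPM), Chrna4 (1.17 CPM), Fasn (162 CPM) and Des (17.1 CPM). It was the lowest for Ppara (53.9 CPM), Hnf4a (373 CPM), Lipc (72.1 CPM) and Stab2, a scavenger receptor of sinusoidal endothelium (39.1 CPM). CD-HFD replicate 3 was the highest for Mlkl (20.5 CPM), Cidec, a lipid droplet protein (71.7 CPM), Acta2 (7.69 CPM) and Ccr1 (3.50 CPM), and CD-HFD replicate 5 for Fabp4 (31.2 CPM). CD-HFD replicate 1 was also the shallowest library of its diet, with 4854689 counts. Whether depth has a part in these values was not tested.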

How the results depend on the processing

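Of the 152 called genes named in the text or its lists, 66 kept their call under every alternative, and the 24 genes with the largest changes did so except H19 and Timp3. The 1312 calls became 1280 with the clock ratio as a covariate, 1294 with DESeq2's size factors in edgeR, 1554 with DESeq2, 945 without the count filter (679 higher, 266 lower) and 2786 in a fit of the compared groups alone (1420 higher, 1366 lower). With scaling by totals 1360 were higher and 171 lower. Leaving out 1 of the 7 libraries gave 500 to 1321 calls, 311 to 953 higher and 189 to 368 lower, and left both interactions at 0. Without WT CD-LFD replicate 3, the deepest library of the study, 1346 were called (884 higher, 462 lower). The fits with 1 library fewer pooled the spread over all groups. The cause of these shifts was not tested. Among the 152 called genes the difference that changed direction was Xist log2 CD-HFD minus CD-LFD, which ran from -4.06 without CD-LFD replicate 1 to 0.68 without CD-LFD replicate 3. Differences near 0 that were not called also changed sign, such as Lrat (-0.11) and Stat5b (-0.03) without CD-LFD replicate 3.

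The replicate numbers do not pair the samples. The correlation of deviations of same-numbered libraries was -0.01 for number 1, 0.20 for number 2 and -0.29 for number 3. With a replicate block 1377 genes were called (852 higher, 525 lower), and 5 of the 152 genes lost their call.

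The interaction with WT gave 4 genes without the count filter (1 higher, Mir6236, and 3 lower, Sult2a1, Sult2a2 and Foxq1), 1 gene, higher, in the fit of the compared groups (Carmil1) and 1, higher, with DESeq2 (Mir6236). The interaction with MlklKO gave 4 without the filter (4 higher), 2 with the compared groups (A930033H14Rik higher, Foxq1 lower) and 2 with DESeq2 (2 higher, Mir6236 and Gm15564). These genes were named after their values were seen. At 4676294 to 12266692 counts, genes near 1 CPM rest on a few reads in the CD-LFD libraries.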
